A study of Mus musculus with 12 samples.

Results

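The genes described here are 4 receptor genes for sphingosine 1-phosphate (S1P), namely S1pr1, S1pr2, S1pr3 and S1pr4, and the genes of the Krüppel-like factors Klf2 and Klf3. They were chosen by name, and all 15 probe sets that the array annotation assigned to 1 of these 6 genes alone were taken, from an annotation that named 18193 genes in this way. S1pr1, S1pr4 and Klf2 each had 1 probe set, S1pr2 had 2, S1pr3 had 3 and Klf3 had 7. RNA was measured on 12 one-colour Affymetrix arrays of splenic B cells sorted on B220, a surface protein of most mouse B cells. There were 4 groups of 3 arrays. Foxp1flox/del cells with IgM are called deleted cells with IgM, and Foxp1wt/flox cells with IgM are called control cells with IgM. The other groups are Foxp1flox/del cells left unstimulated and Foxp1wt/flox cells left unstimulated. Foxp1 encodes a forkhead transcription factor. Every group carried at least 1 flox (conditional) allele, the del allele marks the deleted cells, and the mice had a mixed 129/Sv-C57BL/6 background. The incubation lasted 4 h in every group, and IgM is the stimulus as the labels name it. Not given are the age of the mice, the Cre line or other means of recombination, or whether replicates are separate animals, so p-values cover only the spread between these samples.

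S1P is a lipid that is abundant in blood and lymph and scarce inside lymphoid tissue, and lymphocytes read this difference through G protein-coupled receptors. S1PR1 draws lymphocytes out of lymphoid organs, and S1PR1 and S1PR3 take part in placing marginal zone B cells of the spleen. S1PR2 opposes migration towards S1P and holds germinal centre B cells in the middle of the follicle. S1PR4 is found mainly on blood cells. KLF2 is a zinc-finger transcription factor of resting lymphocytes that activates S1pr1 in T cells, and KLF3 is a related factor that mostly represses transcription and binds the corepressor CtBP. Loss of either factor in mouse B cells alters the marginal zone compartment.

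By the RefSeq annotation of assembly GRCm38.p6, S1pr1 lies on chromosome 3 (115710433 to 115715055), S1pr2 on chromosome 9 (20965952 to 20976793) and S1pr3 on chromosome 13 (51408618 to 51422797). S1pr4 lies on chromosome 10 (81497745 to 81500137), Klf2 on chromosome 8 (72319062 to 72321654) and Klf3 on chromosome 5 (64803521 to 64832901). RefSeq promoter sequences of that build were found for 5 of the 6 genes. The 250 bases before the annotated start are shown for the gene with the largest IgM rise (S1pr3) and for Klf2, which fell with IgM. They are also shown for S1pr2, the member with the largest genotype difference, by 1 of its 2 probe sets. Capitals mark the motif CACCC, which Krüppel-like factors bind, read on either strand, and the MEF2 motif, given here by name, which reads alike on both strands.
S1pr3, chr13:51408368-51408617 on the plus strand: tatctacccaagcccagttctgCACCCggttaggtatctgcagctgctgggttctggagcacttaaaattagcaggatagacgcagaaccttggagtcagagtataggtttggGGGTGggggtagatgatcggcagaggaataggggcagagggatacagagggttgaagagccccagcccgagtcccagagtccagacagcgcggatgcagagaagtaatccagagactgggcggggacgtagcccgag
S1pr2, chr9:20976794-20977043 on the minus strand: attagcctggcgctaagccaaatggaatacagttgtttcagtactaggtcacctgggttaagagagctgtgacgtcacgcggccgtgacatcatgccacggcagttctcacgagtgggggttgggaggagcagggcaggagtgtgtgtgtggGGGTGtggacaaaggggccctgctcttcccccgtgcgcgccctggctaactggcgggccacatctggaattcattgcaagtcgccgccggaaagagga
Klf2, chr8:72318812-72319061 on the plus strand: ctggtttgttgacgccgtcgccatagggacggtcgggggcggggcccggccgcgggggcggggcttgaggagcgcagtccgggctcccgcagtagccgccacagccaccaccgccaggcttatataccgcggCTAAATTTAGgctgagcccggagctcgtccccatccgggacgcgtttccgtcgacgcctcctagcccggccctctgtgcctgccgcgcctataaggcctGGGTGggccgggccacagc
The MEF2 motif stood in the Klf2 promoter, its first base 118 bases before the start, and in 0.508% of the 32851 promoters of the same length. CACCC stood in all 5 promoters, with 5 matches in Klf3 and 1 or 2 in the others, and in 52% of all promoters. The forkhead motif TGTTTAC stood in 0 of the 5 and in 3.17% of all promoters, on either strand. No match overlapped another kind of motif, and the motifs were chosen with these sequences in view.

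Values are the authors' log2 GCRMA values, so a difference of 1 is a 2-fold change. All arrays shared a floor of 2.23, and near it values have no order and changes are compressed. A probe set was tested when its value was above 4 on at least 3 of the 12 arrays, which 19187 probe sets met, among them 13 of the 15 described here. The 2 others, both of Klf3, ranged from 2.23 to 4.96 and from 2.26 to 2.89 and were not tested. Differences were tested with limma, with Benjamini-Hochberg adjustment over the 19187 probe sets and a threshold of 0.05. Arrays of one group correlated at 0.948 to 0.977, except that deleted IgM replicate 3 correlated at 0.837 and 0.884 with its group mates. On that array the genes with the shortest genomic span lay lower than on its mates (median log2 difference -1.29 in the shortest of 5 classes, 64 to 7968 bases) and the longest lay higher (0.81). Klf2 and S1pr4, with spans of 2593 and 2393 bases, lay 1.27 and 1.34 below the mean of their mates there (log2 differences -1.27 and -1.34), and S1pr1, with 4623, lay 0.71 above it. Where leaving this array out changes a member's call, that value is printed too. Of 8 B cell markers 7 were annotated and all 7 passed the filter. The values of Ms4a1 (CD20) lay between 12.44 and 13.96, those of Cd79a between 9.03 and 14.51 and those of Pax5 between 4.82 and 9.15. The summed linear level of the 7 was lower with IgM, at 25841 to 33261 against 56396 to 62834 without it in deleted cells and 23080 to 28725 against 61142 to 64157 without it in control cells. By the test described above, 1 of the 7 was higher and 2 lower with IgM in deleted cells, and 3 were lower in control cells. These sums moved with the falls of S1pr4, Klf2 and Klf3 with IgM, and their part in those results was not tested. Foxp1 had 8 probe sets, none of which differed between genotypes (limma adjusted p 0.662 or higher, and 0 with an unadjusted p under 0.05). Whether they lie in the deleted part of the gene is not known here, so they do not check the labels.

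S1pr3 rose after IgM in both genotypes, by all 3 of its probe sets in deleted cells and 2 in control cells, and was the member that rose furthest. The probe set 1437173_at read 8.62, 7.68 and 8.43 in deleted cells with IgM, against 8.42, 8.37 and 8.07 in control cells with IgM. It read 3.38, 3.22 and 3.08 in unstimulated deleted cells, against 3.97, 3.88 and 3.38 in unstimulated control cells. Every IgM array lay far above every unstimulated array, while the genotypes overlapped with IgM. It passed the filter through the 6 IgM arrays alone, and its unstimulated values were near the floor, so the sizes that follow are not exact. The log2 difference was 5.02 ± 0.27 (SE, n = 3 per group) in deleted cells, or 32.4-fold, and 4.54 ± 0.27 (SE, n = 3 per group) in control cells, or 23.3-fold. These ranked 1 of 19187 from the highest in each genotype (limma adjusted p = 1.06e-05 and 2.75e-05).

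The brighter S1pr3 probe set, 1438658_a_at, started well above the floor. It read 10.94, 10.35 and 11.42 in deleted cells with IgM, against 10.94, 11.13 and 10.99 in control cells with IgM. It read 6.76, 6.55 and 6.15 in unstimulated deleted cells, against 7.36, 8.18 and 7.07 in unstimulated control cells. Again no IgM array came near an unstimulated one. The log2 difference was 4.42 ± 0.34 (SE) in deleted cells and 3.49 ± 0.34 (SE) in control cells (limma adjusted p = 5.21e-05 and 0.000151), rank 6 and rank 13 of 19187 from the highest. The rise in same-numbered pairs was 4.18, 3.80 and 5.27 in deleted cells and 3.58, 2.95 and 3.93 in control cells, so it was present in 6 of 6 pairs. The third probe set, 1460661_at, passed the filter through the 6 IgM arrays alone, and its unstimulated values (2.85 to 3.52) were near the floor, so its sizes are not exact either. It read 4.45, 5.03 and 6.43 in deleted cells with IgM, against 4.44, 6.13 and 4.31 in control cells with IgM. It rose by 2.04 ± 0.56 (SE) in deleted cells (limma adjusted p = 0.0293), a call lost in 5 of the 12 fits without 1 array. One of these was deleted IgM replicate 3, without which the log2 difference was 1.47 (limma adjusted p = 0.0713), and the others were deleted IgM replicate 2 and each unstimulated deleted array, with adjusted p up to 0.106. In control cells it had a log2 difference of 1.70 that did not pass (limma adjusted p = 0.0580), and it did with the replicate number as a block (adjusted p = 0.0295) and without deleted IgM replicate 3 (adjusted p = 0.0193).

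In unstimulated cells the 1438658_a_at values of all 3 deleted arrays lay below those of all 3 control arrays, with means of 6.49 ± 0.31 and 7.54 ± 0.58 (SD, n = 3 each). The log2 difference of -1.05 (95% interval -1.79 to -0.31) did not pass (limma adjusted p = 0.208), and it did only with the replicate block and without deleted IgM replicate 3 together (adjusted p = 0.0297). The genotypes did not differ past the threshold with IgM, where the difference was -0.12 (95% interval -0.86 to 0.62). Summed levels of endothelial and macrophage markers were not higher with IgM, and the part of such cells in the S1pr3 results was not tested. Of the 8 endothelial markers, 6 stayed at or below 4 on all 12 arrays. The summed linear level of 8 endothelial markers was 402 to 1324 with IgM and 2286 to 3689 without it in deleted cells. In control cells it was 57 to 91 with IgM and 550 to 755 without it. For 6 macrophage and monocyte markers the sums were 467 to 2430 with IgM and 749 to 3065 without it in deleted cells, and 177 to 454 with IgM and 215 to 555 without it in control cells.

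**Figure D1:**
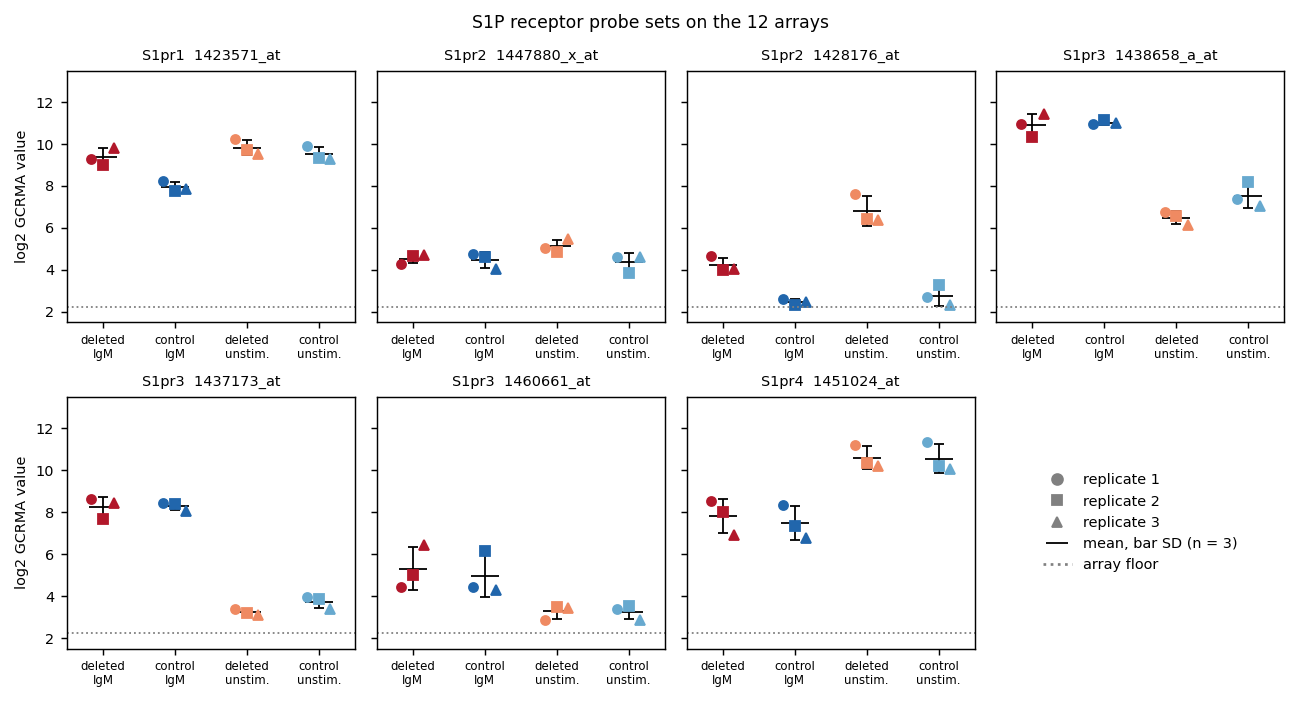
Each panel shows 1 S1P receptor probe set, with the log2 GCRMA value on the y axis and the 4 groups on the x axis; symbols are the 3 replicates, black bars the mean and SD, and the dotted line the array floor of 2.23. All IgM arrays of S1pr3 1437173_at lie above 7.6 and all unstimulated ones below 4, S1pr2 1428176_at is highest in unstimulated deleted cells, and S1pr4 is lower with IgM in both genotypes.

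S1pr2 was the member with a large genotype difference, seen by 1 of its 2 probe sets. In unstimulated cells 1428176_at read 7.60, 6.43 and 6.38 on deleted arrays, against 2.68, 3.29 and 2.35 on control arrays. The control values were near the floor and the deleted values well above it. This probe set entered the test through 5 deleted arrays alone, so the filter favoured the call and rank that follow. The log2 difference was 4.03 ± 0.36 (SE, n = 3 per group), or 16.4-fold on a compressed scale (limma adjusted p = 0.000169), rank 35 of 19187 from the highest. With IgM it read 4.64, 3.99 and 4.03 in deleted cells and 2.62, 2.35 and 2.47 in control cells, again without overlap. That difference of 1.74 ± 0.36 (SE) passed narrowly (limma adjusted p = 0.0481), and with the replicate block (adjusted p = 0.0135). It passed in 1 of the 12 fits without 1 array, that without unstimulated deleted replicate 1, and the adjusted p of the others reached 0.193 (without deleted IgM replicate 3 the difference was 1.84, adjusted p = 0.0702). Within deleted cells IgM lowered it, and S1pr2 fell by 2.58 ± 0.36 (SE) on the log2 scale (limma adjusted p = 0.00106), with same-numbered pairs at -2.96, -2.44 and -2.35. In control cells the log2 difference was -0.29 (95% interval -1.09 to 0.50), measured at the floor. The interaction subtracts the unstimulated genotype difference from the one with IgM. It was -2.29 ± 0.51 (SE) and did not pass (limma unadjusted p = 0.000941, adjusted p = 0.341).

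The other S1pr2 probe set, 1447880_x_at, had smaller differences that did not pass. The x in its name marks probes that match other transcripts as well. It read 5.06, 4.84 and 5.47 on unstimulated deleted arrays, against 4.61, 3.87 and 4.61 on unstimulated control arrays. All 3 deleted arrays lay above the control ones, but the log2 difference of 0.76 (95% interval 0.13 to 1.40) did not pass (limma adjusted p = 0.338). In deleted cells its log2 difference with IgM was -0.59 (95% interval -1.22 to 0.05; limma adjusted p = 0.196), without overlap. Between genotypes with IgM the difference was 0.08 (95% interval -0.56 to 0.71). This probe set is dim as well. It is the probe set with the higher mean over the 12 arrays (4.62, against 4.07), so a table with the brightest probe set of each gene holds 0 called members in this comparison. The 1428176_at probe set passed the filter through 5 deleted arrays, so the filter itself favoured a difference in this direction.

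Summed marker levels of some other blood cells were higher on unstimulated deleted arrays, as S1pr2 was. Unstimulated deleted arrays had summed linear levels of 749 to 3065 for 6 macrophage and monocyte markers and 2618 to 18748 for 7 neutrophil markers. Unstimulated control arrays had 215 to 555 and 283 to 2447. The 5 annotated NK cell markers summed to 545 to 1174 on deleted and 210 to 489 on control arrays. Taken singly in limma, 0 of the 7 neutrophil markers were called between these groups. One macrophage marker (1) was higher and 1 lower, and 1 NK cell and 1 endothelial marker were higher, where 2.03% of all tested probe sets were called. The endothelial sums given above were also higher on deleted arrays, although 6 of the 8 genes (Cdh5, Kdr, Tek, Cldn5, Emcn and Tie1) stayed at or below 4 on all 12 arrays. Pecam1, which leukocytes also carry, reached 11.83, and no other gene of the 8 exceeded 5.15. The part of these cells in the S1pr2 difference was not tested. In sorted bulk RNA, fewer cells of a type and less RNA per cell cannot be told apart.

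S1pr1 fell after IgM in control cells, and its smaller difference in deleted cells did not pass. The test of the difference between these responses did not pass either. Its only probe set, 1423571_at, read 9.27, 8.98 and 9.83 in deleted cells with IgM, against 8.24, 7.76 and 7.87 in control cells with IgM. It read 10.23, 9.73 and 9.52 in unstimulated deleted cells, against 9.90, 9.33 and 9.31 in unstimulated control cells. The 3 control arrays with IgM were the lowest of the 12, and the deleted arrays with IgM overlapped with both unstimulated groups. In control cells S1pr1 fell by 1.56 ± 0.29 (SE, n = 3 per group) on the log2 scale, to 7.96 ± 0.25 with IgM against 9.51 ± 0.34 without it (SD, n = 3 each; limma adjusted p = 0.00435). In deleted cells the log2 difference was -0.46 (95% interval -1.11 to 0.18) and did not pass (limma adjusted p = 0.312). Same-numbered pairs gave -0.96, -0.75 and 0.32 there, and without deleted IgM replicate 3 the difference was -0.70 (limma adjusted p = 0.103, and 0.00106 when the replicate block was added).

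With IgM, S1pr1 averaged 9.36 ± 0.43 in deleted cells and 7.96 ± 0.25 in control cells (SD, n = 3 each). This 2.65-fold difference (log2 1.41 ± 0.29, SE) passed narrowly (limma adjusted p = 0.0483). It was past the threshold with the replicate block (adjusted p = 0.0131) and in 0 of 12 fits that left out 1 array, in which the difference was 1.17 to 1.60 and the adjusted p 0.0571 to 0.215. The lowest difference, 1.17, was that without deleted IgM replicate 3 (limma adjusted p = 0.0836). In all 3 same-numbered pairs the deleted array was higher, by 1.03, 1.22 and 1.97. Without IgM the difference was 0.31 (95% interval -0.33 to 0.96; limma adjusted p = 1). On the arrays with IgM the summed linear marker levels were also higher in deleted than in control cells, at 1693 to 10924 against 202 to 1356 for neutrophils. The NK cell sums were 262 to 756 in deleted and 138 to 311 in control cells, which overlap, and the macrophage and endothelial sums are given with S1pr3. Taken singly in limma, 0 neutrophil and 0 NK cell markers were called there. Of the macrophage markers 1 was higher in deleted cells, and of the endothelial markers 1, where 1.19% of all tested probe sets were called. The part of these cells in the S1pr1 difference was not tested. The test of the difference between these genotype effects gave an interaction of 1.09 ± 0.41 (SE), which did not pass (limma unadjusted p = 0.0229, adjusted p = 0.968).

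S1pr4 fell strongly with IgM in both genotypes. The probe set 1451024_at read 8.54, 8.02 and 6.94 in deleted cells with IgM, against 8.35, 7.34 and 6.77 in control cells with IgM. It read 11.23, 10.36 and 10.20 in unstimulated deleted cells, against 11.34, 10.22 and 10.08 in unstimulated control cells. No IgM array overlapped with an unstimulated one, and replicate 1 was the highest of each group. On the log2 scale S1pr4 fell by 2.77 ± 0.53 (SE) in deleted cells, a 6.80-fold decrease. In control cells it fell by 3.06 ± 0.53 (SE) on that scale, an 8.32-fold decrease (limma adjusted p = 0.00553 and 0.00296). Without deleted IgM replicate 3 the fall in deleted cells was smaller, with a log2 difference of -2.32 (limma adjusted p = 0.0132). The genotypes did not differ past the threshold, with log2 differences of 0.34 (95% interval -0.82 to 1.51) with IgM and 0.05 (95% interval -1.12 to 1.22) without it. Same-numbered pairs differed by 0.19, 0.68 and 0.17 with IgM and by -0.11, 0.14 and 0.13 without it.

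Klf2 fell with IgM in both genotypes, which overlapped in each condition. Its probe set 1448890_at read 9.94, 9.95 and 8.68 in deleted cells with IgM, against 9.67, 9.27 and 8.72 in control cells with IgM. It read 12.35, 12.16 and 12.09 in unstimulated deleted cells, against 12.25, 11.49 and 11.57 in unstimulated control cells. The highest IgM array, at 9.95, lay below the lowest unstimulated one, at 11.49. On the log2 scale Klf2 fell by 2.68 ± 0.38 (SE) in deleted cells, a 6.41-fold decrease. In control cells it fell by 2.55 ± 0.38 (SE) on that scale, a 5.86-fold decrease (limma adjusted p = 0.0011 and 0.00121). The log2 difference between genotypes was 0.30 (95% interval -0.53 to 1.13) with IgM and 0.43 (95% interval -0.40 to 1.26) without it, and neither passed (limma adjusted p = 0.737 and 1). The interaction was -0.13 (95% interval -1.30 to 1.05).

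Klf3 was read by 5 tested probe sets, which share 1 gene and are not independent. The brightest, 1454666_at, read 9.48, 9.57 and 10.47 in deleted cells with IgM, against 9.31, 9.31 and 9.68 in control cells with IgM. It read 10.72, 10.58 and 10.88 in unstimulated deleted cells, against 10.83, 10.84 and 10.94 in unstimulated control cells. Every IgM array was below every unstimulated one, by the narrowest margin for deleted IgM replicate 3. In control cells it fell by 1.44 ± 0.26 (SE) on the log2 scale (limma adjusted p = 0.00394), and the others had log2 differences between -1.02 and -1.81. In control cells 4 of the 5 passed, where 18.2% of all tested probe sets did, and the one that did not, 1441200_at, had a log2 difference of -1.02 (limma adjusted p = 0.0873; blocked by replicate, 0.00178). The calls of 1429360_at and 1431630_a_at were lost in 5 and 3 of the 12 fits without 1 array, each time a control array, with adjusted p up to 0.129 and 0.0534. In deleted cells the 5 log2 differences lay between -0.70 and -1.15, and 1 passed, where 17.0% of all tested probe sets did. It was 1454666_at, with a log2 difference of -0.89 (limma adjusted p = 0.0421). That call was lost in 11 of the 12 fits without 1 array and was kept without deleted IgM replicate 3, where the difference was -1.20 (limma adjusted p = 0.00123). All 5 passed in deleted cells with the replicate block, where 34.4% of all tested probe sets did. Between genotypes 0 of the 5 Klf3 probe sets passed in limma, 0 also at an unadjusted p under 0.05, with log2 differences of 0.08 to 0.43 with IgM and -0.43 to -0.07 without it.

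**Figure D2:**
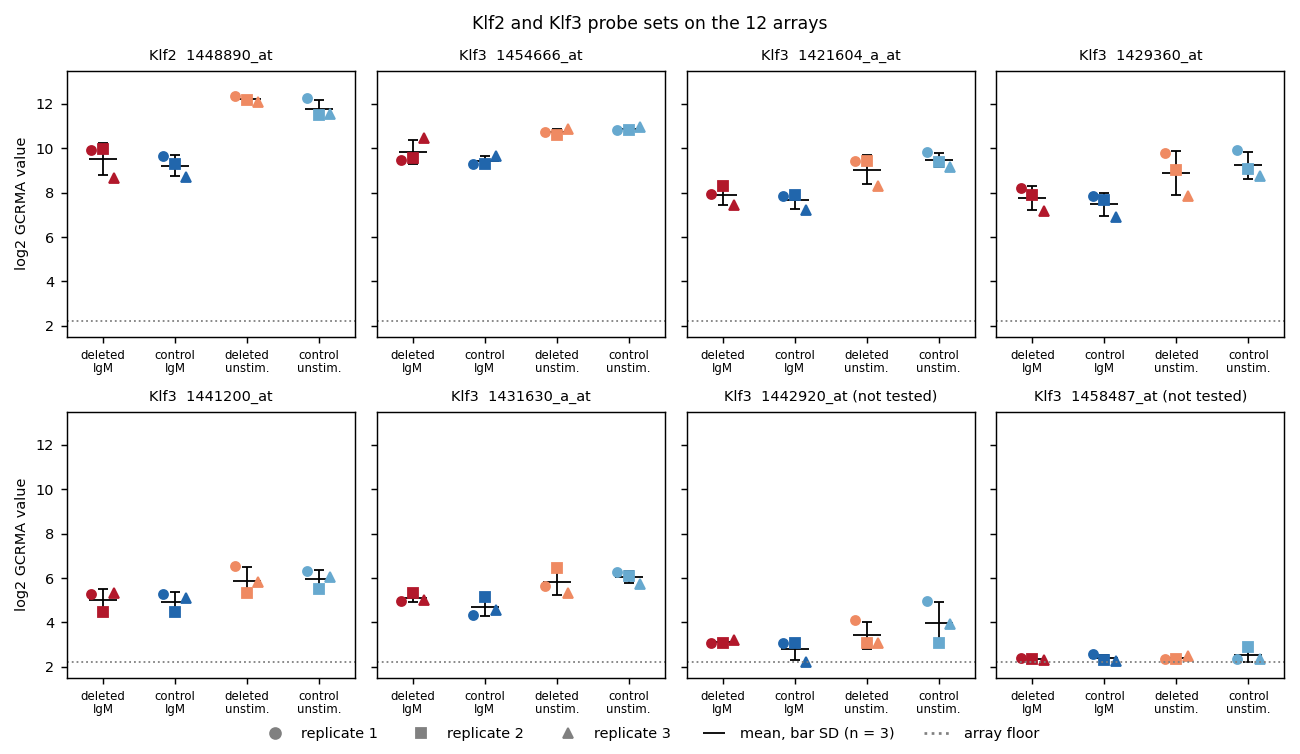
Each panel shows 1 probe set of Klf2 or Klf3, drawn as in the plot of the receptors; the 2 dimmest Klf3 probe sets were not tested. Klf2 lies between 8.68 and 9.95 with IgM and between 11.49 and 12.35 without it, and the 5 tested Klf3 probe sets have lower means with IgM in both genotypes.

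Counted over the 13 tested probe sets, IgM changed 7 in deleted cells (3 higher, all of S1pr3, and 4 lower) and 9 in control cells (2 higher, both of S1pr3, and 7 lower). S1pr3 1437173_at and 1460661_at passed the filter through the 6 IgM arrays alone, and S1pr2 1428176_at through 5 deleted arrays. The filter itself therefore favoured their calls, which are part of the counts given here. The background was 17.0% of all tested probe sets in deleted cells (9.95% higher and 7.04% lower) and 18.2% in control cells (8.24% higher and 9.91% lower). The genotype changed 1 of 13 without IgM, against a background of 2.03%, and 2 of 13 with IgM, against 1.19%. Blocked by replicate, the counts were 1 and 2 for the genotype, against 5.36% and 4.80%, and 11 for IgM in each genotype, against 34.4% in deleted and 33.4% in control cells. By direction, the genotype background was 1.47% higher and 0.552% lower without IgM, and 1.06% higher and 0.130% lower with it. Groups that did not overlap were more common than calls. Between unstimulated genotypes 2 of the 13 probe sets, both of S1pr2, lay wholly higher and 1, of S1pr3, wholly lower in deleted cells. The background was 17.2% of all tested probe sets (8.03% higher and 9.12% lower). With IgM 2 of the 13 lay wholly higher and 0 wholly lower, against 16.1% (10.2% higher and 5.85% lower). With IgM against without, 3 were wholly higher and 5 wholly lower in deleted cells, against 32.5% (17.8% and 14.8%), and 3 and 8 in control cells, against 43.1% (21.2% and 21.9%). The interaction called 0 of 13 in limma, against a background of 0.0990%, all of it lower (0.0990%) and 0% higher. At an unadjusted p under 0.05 there were 2 of 13 (S1pr1 and S1pr2 1428176_at), and 696 of all 19187 tested probe sets. With the replicate block the interaction also called 0, against 0.198%. There 3 of 13 had an unadjusted p under 0.05, and 1689 of all 19187 did. Probe sets of 1 gene are not separate findings, and comparisons that share a group share its arrays. By gene, the order of levels across conditions had the IgM groups highest for S1pr3, unstimulated groups highest for S1pr4, Klf2 and Klf3, with neighbouring genotypes not differing past the threshold, and unstimulated deleted cells highest for S1pr2. S1pr1 had its control cells with IgM below the other 3 groups, among which no tested difference passed.

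**Figure D3:**
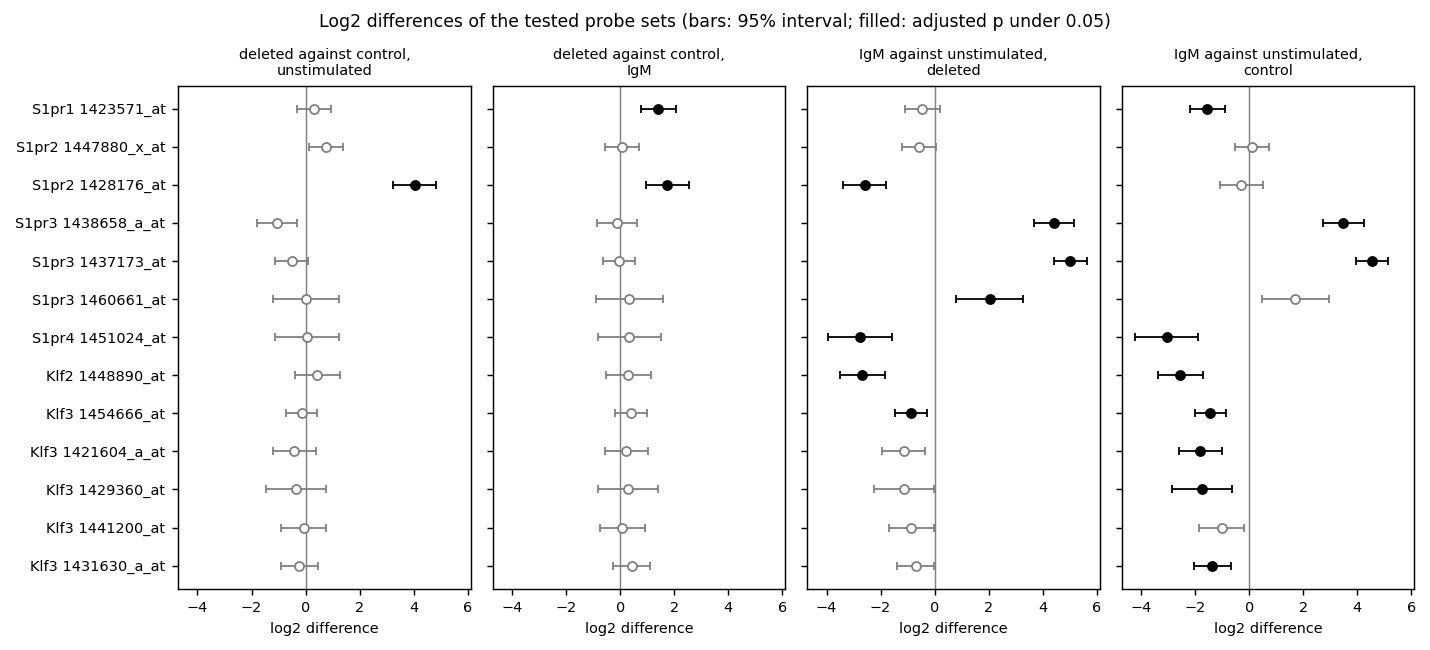
Log2 differences of the 13 tested probe sets (x axis) in 4 comparisons, 1 per panel, with 95% intervals from limma; filled points have an adjusted p under 0.05. Both IgM panels show S1pr3 to the right and S1pr4, Klf2 and Klf3 to the left of 0, and S1pr2 1428176_at stands at 4.03 between unstimulated genotypes.

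Genes whose profiles over the 12 arrays were most like those of S1pr1 and Klf2 were found by the root mean square difference of log2 values, each profile less its own mean, among 9001 other named genes. For S1pr1 these were Zfp763 (0.21), the deubiquitinase gene Otub2 (0.24), the arginine methyltransferase gene Prmt9 (0.25) and the kinase genes Sgk3 and Stk26 (0.27 each). Sgk3, for instance, averaged 8.95 in deleted cells and 7.68 in control cells when IgM was present, against 9.47 in deleted cells and 9.36 in control cells left unstimulated. For Klf2 they were Sertad3 (0.15), the cytoskeletal adaptor gene Pstpip1 (0.24), Grhpr (0.29), the homeobox gene Hhex (0.34) and the lymphotoxin gene Ltb (0.34). S1pr4 came next to these, at rank 6 (0.34), whereas S1pr1 was at rank 1195 for Klf2. These values describe 12 arrays that share array quality as well as condition.

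Among genes that make, export or degrade S1P, 7 of 12 were measured, and IgM changed 1 of these in deleted and 2 in control cells, where 17.0% and 18.2% of all tested probe sets were called. The phosphatase gene Plpp3, whose product dephosphorylates S1P outside cells, fell with IgM in both genotypes, with log2 differences of -2.40 ± 0.23 (SE) in deleted and -2.25 ± 0.23 (SE) in control cells (limma adjusted p = 0.00016 and 0.000194). Plpp3 averaged 7.50 ± 0.15 in unstimulated deleted cells and 6.40 ± 0.15 in unstimulated control cells (SD, n = 3 each), a rise of 1.10 ± 0.23 (SE; limma adjusted p = 0.0367) whose call was lost in 9 of the 12 fits without 1 array (adjusted p up to 0.157). Spns2, an S1P exporter, had a log2 difference of -2.73 ± 0.43 (SE) with IgM in control cells (limma adjusted p = 0.00176). Its mean in control cells with IgM, 3.69, was near the floor, so that size is not exact. Its log2 difference of -1.35 in deleted cells did not pass (limma adjusted p = 0.056). In deleted cells Plpp3 was the 1 gene of the 7 that passed (3 with the replicate block, where 34.4% of all tested probe sets did). The list's median log2 difference there was -0.21, against 0.02 over all tested probe sets. In control cells it was -0.32 (-0.01 over all). With IgM, 0 of the 7 differed between genotypes in limma (2 at an unadjusted p under 0.05). With the block 1 passed there, where 4.80% of all tested probe sets did. Between genotypes the list's median was 0.51 with IgM and 0.23 without it (0.05 and -0.04 over all).

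Of 14 measured genes of receptor signalling and trafficking, 1 rose and 2 fell with IgM in deleted cells, and 1 rose and 5 fell in control cells. These are 3 and 6 of 14, where 17.0% and 18.2% of all tested probe sets were called. Leaving out 1 array gave 2 to 6 in deleted and 3 to 7 in control cells (4 and 7 without deleted IgM replicate 3). Over all 19187 tested probe sets such fits called 1920 to 4044 in deleted and 2100 to 5870 in control cells. With the replicate block 7 passed in deleted and 8 in control cells, where 34.4% and 33.4% of all tested probe sets did. The gene that rose in both was Cd69, whose protein binds S1PR1 and removes it from the cell surface. Cd69 averaged 11.75 ± 0.22 with IgM and 9.70 ± 0.42 without it in deleted cells, and 12.12 ± 0.19 with IgM and 10.60 ± 0.23 without it in control cells (SD, n = 3 each). The rises were 2.05 and 1.52 on the log2 scale (limma adjusted p = 0.000566 and 0.00227). Arhgef1, whose product acts downstream of S1PR2, had log2 differences of -1.80 in deleted and -2.27 in control cells (limma adjusted p = 0.000368 and 9.41e-05), and the arrestin gene Arrb2 of -1.33 and -1.80 (limma adjusted p = 0.0303 and 0.00674). The other falls in control cells were the arrestin gene Arrb1 (-2.49), the inhibitory G protein subunit gene Gnai2 (-1.98), through which S1PR1 signals, and Arhgef11 (-1.42). In deleted cells Arrb1, Gnai2 and Arhgef11 had log2 differences of -1.54, -1.58 and -0.87, which did not pass (limma adjusted p = 0.0858, 0.0745 and 0.13). Arrb1 averaged 3.77 in control cells with IgM, near the floor, so its size there is not exact. Without 1 array, the calls were lost for Gnai2 in 6, Arhgef11 in 5 and Arrb1 in 1 of the 12 fits, and for Arrb2 in deleted cells in 3 (adjusted p up to 0.115). Between genotypes 0 of the 14 passed in limma (2 with IgM and 2 without it at an unadjusted p under 0.05). When the block was used 1 passed without IgM, where 5.36% of all tested probe sets did. The list's median log2 difference with IgM was -0.01 in deleted and -0.20 in control cells, against 0.02 and -0.01 over all tested probe sets.

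Of 8 measured genes of other Krüppel-like factors, Klf10 and Klf9 rose with IgM in both genotypes and Klf7 fell in both, and Klf16 rose in control cells. These are 3 of 8 in deleted and 4 of 8 in control cells, where 17.0% and 18.2% of all tested probe sets were called. Klf10, an early gene of transforming growth factor signalling, had log2 differences of 2.35 in deleted and 2.09 in control cells (limma adjusted p = 0.000955 and 0.00152). Klf9 had 1.82 and 1.25 (adjusted p = 0.00547 and 0.0299), and Klf7 had -1.23 and -1.45 (adjusted p = 0.00441 and 0.00157). The log2 difference of Klf16 in control cells was 1.05 (adjusted p = 0.0162). In control cells Klf9 lost its call in 6 and Klf16 in 3 of the 12 fits without 1 array (adjusted p up to 0.0961). With the block 5 of the 8 passed in deleted and 5 in control cells, where 34.4% and 33.4% of all tested probe sets did. Without deleted IgM replicate 3 the counts were 4 and 4. Fits without 1 array called 1920 to 4044 of all 19187 tested probe sets in deleted and 2100 to 5870 in control cells. The list's median was 0.04 in deleted and 0.21 in control cells, against 0.02 and -0.01 over all probe sets.

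Among 11 measured regulators and cofactors of Klf2 and Klf3, 2 fell in deleted and 4 in control cells and 0 rose in either, where 17.0% and 18.2% of all tested probe sets were called. With the replicate block 4 passed in deleted cells, where 34.4% of all tested probe sets did. Without deleted IgM replicate 3 and without the block, 6 passed in deleted cells. Fits without 1 array called 1920 to 4044 of all 19187 tested probe sets in this comparison. The list's median was -0.18 in deleted and -0.32 in control cells, against 0.02 and -0.01 over all probe sets. The histone deacetylase gene Hdac5, whose product represses MEF2 factors, had log2 differences of -1.09 and -1.38 (limma adjusted p = 0.00233 and 0.000589). Foxo1, a forkhead activator of Klf2 and S1pr1 in T cells, averaged 9.03 ± 0.14 in control cells with IgM and 10.44 ± 0.09 in unstimulated control cells (SD, n = 3 each), a log2 difference of -1.41 (limma adjusted p = 0.000999). Mef2c, a factor of the family whose motif stands in the Klf2 promoter, had a log2 difference of -1.09 in control cells (limma adjusted p = 0.0117). Foxo3 had -1.11 in control cells (adjusted p = 0.0144) and Hdac7 -1.32 in deleted cells (adjusted p = 0.0289), calls lost in 3 and 4 of the 12 fits without 1 array. Between genotypes 0 of these 11 genes and 0 of the 8 other Krüppel-like factor genes passed in limma, with or without IgM. At an unadjusted p under 0.05 these were 3 and 2 with IgM and 1 and 1 without it. Without IgM, 1 of the 8 passed with the block, where 5.36% of all tested probe sets did. Without deleted IgM replicate 3, 1 passed as well, where 760 of all 19187 tested probe sets did.

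Of 12 genes of lymphocyte homing and retention, 1 rose and 2 fell with IgM in deleted cells, and 3 rose and 3 fell in control cells. These are 3 and 6 of 12, against the same 17.0% and 18.2%. With the replicate block 5 passed in deleted cells and 6 in control cells, where 34.4% and 33.4% of all tested probe sets did. Without deleted IgM replicate 3 the counts were 5 and 7. Fits without 1 array called 1920 to 4044 of all 19187 tested probe sets in deleted and 2100 to 5870 in control cells. The list's median was 0.34 in deleted and -0.08 in control cells, against 0.02 and -0.01 over all probe sets. The integrin genes Itgb7 and Itga4, whose products pair to bind mucosal and vascular ligands, fell in both. Itgb7 had log2 differences of -1.86 in deleted and -2.94 in control cells (limma adjusted p = 0.00716 and 0.00059), and Itga4 of -1.52 and -2.21 (adjusted p = 0.0021 and 0.000267). With IgM, Itga4 averaged 10.10 ± 0.41 in deleted cells and 8.39 ± 0.13 in control cells (SD, n = 3 each), a rise of 1.71 ± 0.24 (SE) over control cells (limma adjusted p = 0.00982). With the block 2 genes of the list passed there, where 4.80% of all tested probe sets did. Gpr183, an oxysterol receptor that guides B cells within the follicle, rose with IgM by 1.98 in deleted and 1.18 in control cells (adjusted p = 0.00109 and 0.0138). Unstimulated, it averaged 9.0 ± 0.18 in deleted and 10.51 ± 0.22 in control cells (SD, n = 3 each), and fell by 1.51 ± 0.28 (SE) on the log2 scale (limma adjusted p = 0.0175), a call lost in 4 of the 12 fits without 1 array. With the replicate block 3 genes of the list passed in this comparison, where 5.36% of all tested probe sets did. Without deleted IgM replicate 3, 3 passed as well, where 760 of all 19187 tested probe sets did. The cannabinoid receptor gene Cnr2 had a log2 difference of -2.07 with IgM in control cells (adjusted p = 0.000916). Il7r (1.85) and Ccr9 (1.30) were the other rises there (adjusted p = 0.0107 and 0.0408), and Ccr9 lost its call in 7 of the 12 fits without 1 array (adjusted p up to 0.147).

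**Figure D4:**
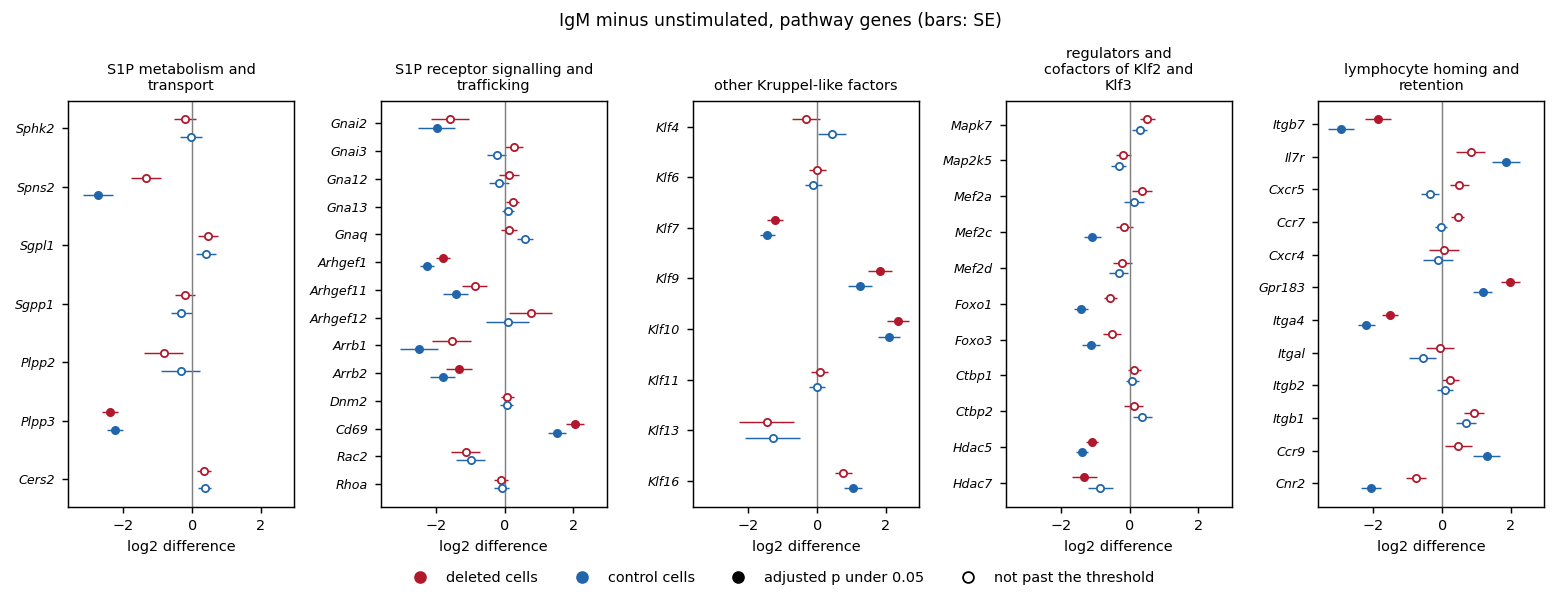
Log2 difference of IgM minus unstimulated cells (x axis, bars are SE) for the measured genes of the 5 lists, with deleted cells in red drawn above control cells in blue; filled points have an adjusted p under 0.05. Cd69, Klf10, Klf9 and Gpr183 lie to the right in both genotypes and Plpp3, Arhgef1, Itgb7 and Itga4 to the left.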

How the data were processed

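RNA of 12 B cell samples was measured on 1 array each, 3 per group. The deposited log2 values were made by the authors with GCRMA, per the submitters' processing notes. That method adjusts for background by probe sequence, applies quantile normalization and gives 1 value per probe set. The version is not given in the sources used here, and the values, from 2.23 to 15.79, show the log2 scale. The table held 45101 probe sets, 64 of them controls. GEO's platform annotation gave 34945 probe sets 1 gene, and 34741 symbols were updated through gene identifiers with a gene table of GRCm38.p6. Arrays carry no read depth, and their number limits the precision.

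Probe sets with a value above 4 on at least 3 arrays (19187) were fitted with limma 3.58.1 in R 4.3.3 (eBayes), with 1 mean for each of 4 groups, a shared spread and two-sided tests in 5 comparisons. Adjusted p values are Benjamini-Hochberg over the 19187. Pathway and marker genes were represented by their brightest probe set. The text names every member, the 5 genes nearest in profile to S1pr1 and to Klf2, and the 4 largest changes past the threshold per list and comparison. Arhgef11 and Ccr9 fall outside that limit, complete a count and were chosen with their values seen. The members and lists were chosen with earlier results of these data known. Replicate numbers 1 to 3 from the labels recur in every group. Across probe sets, the residuals of arrays with equal numbers correlated at 0.242 to 0.838, all above 0.1. The labels do not say whether equal numbers mark paired samples or a shared batch. The main fit has no block, so its SE, intervals and adjusted p ignore this correlation. For the IgM difference of S1pr4 in control cells, for instance, the SE was 0.53 in the main fit and 0.20 with the block. A blocked value is printed where it changes a member's call or a list's count. Promoter sequences are RefSeq's. The fit was tested on simulated data. Alternatives were no filter, 1 probe set per gene (9293 genes), the block, cyclic loess, the block without deleted IgM replicate 3, a fit to only the 6 arrays compared, and leaving out each array.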

Additional observations from a re-analysis of the deposited data

Results flagged for a closer look

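In 2 Klf3 probe sets the genotype difference had opposite signs without and with IgM in every same-numbered pair. For 1454666_at the deleted array was lower in 3 of 3 pairs without IgM (-0.11, -0.26 and -0.06) and higher in 3 of 3 with it (0.17, 0.26 and 0.80), and the interaction was 0.55 (limma unadjusted p = 0.168, adjusted p = 0.968). For 1429360_at the pairs were -0.13, -0.01 and -0.90 without IgM and 0.35, 0.24 and 0.28 with it, and the interaction was 0.64 (limma unadjusted p = 0.389, adjusted p = 0.968). Neither interaction passed the threshold, and both probe sets read the same gene. Leaving out 1 array reversed the sign of each 1429360_at genotype difference in some fits, while both 1454666_at differences kept theirs. These probe sets were picked by their signs. How many of all 19187 tested probe sets share the pattern was not counted, so whether it is unusual was not tested.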

How the results depend on the processing

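Member counts are of 13 tested probe sets. The genotype changed 1 without IgM and 2 with it, IgM changed 7 in deleted and 9 in control cells, and the interaction called 0. Leaving out 1 array gave 1 without IgM in every fit, 0 to 1 with it, 5 to 7 for IgM in deleted cells, 7 to 10 in control cells and 0 for the interaction. With 1 probe set per gene, which tests 6 members, the counts were 0, 1, 4 and 5 in that order (S1pr2 being read by 1447880_x_at, with 2 members at an unadjusted p under 0.05 where limma called 0), and 10 interactions were called over all genes. With IgM, the genotype count was 0 without the filter, after cyclic loess and in the fit to 6 arrays (2 in each at an unadjusted p under 0.05 in limma). With the replicate block IgM changed 11 in deleted cells, and with the block and without deleted IgM replicate 3 it changed 12, and the genotype changed 2 without IgM. Over all probe sets the counts were 389, 229, 3260, 3483 and 19, in the order genotype without IgM, genotype with IgM, IgM in deleted cells, IgM in control cells and interaction. Leaving out 1 array gave 226 to 760, 45 to 258, 1920 to 4044, 2100 to 5870 and 12 to 31. The replicate block gave 1028, 921, 6603, 6412 and 38, and the block without deleted IgM replicate 3 gave 3197, 1551, 8815, 10956 and 194. Without the filter the genotype count with IgM was 123. The fit to 6 arrays gave 0 for it in limma (1353 at an unadjusted p under 0.05) and 905 for IgM in deleted cells, and 1 probe set per gene gave 1765 and 1920 for IgM in deleted and control cells. In these counts the cause of a change was not tested, beyond the fewer features or arrays that a setting uses.

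Of 65 member differences, 17 changed sign in at least 1 setting, and 0 of these were past the threshold in limma. Leaving out 1 array, the genotype difference with IgM ranged from -0.00026 to 0.59 for Klf3 1429360_at, -0.16 to 0.36 for Klf3 1441200_at, -0.13 to 0.21 for S1pr2 1447880_x_at, -0.23 to 0.24 for S1pr3 1437173_at, -0.38 to 0.16 for S1pr3 1438658_a_at, -0.22 to 0.93 for S1pr3 1460661_at and -0.012 to 0.79 for S1pr4. Without IgM it ranged from -0.80 to 0.17 for Klf3 1429360_at, -0.54 to 0.0033 for Klf3 1431630_a_at, -0.39 to 0.21 for Klf3 1441200_at, -0.19 to 0.22 for S1pr3 1460661_at and -0.26 to 0.45 for S1pr4. The IgM difference of S1pr2 1447880_x_at in control cells ranged from -0.15 to 0.31. The interaction ranged from -0.38 to 0.29 for Klf2, -0.13 to 0.47 for Klf3 1441200_at, -0.23 to 0.92 for S1pr3 1460661_at and -0.10 to 0.74 for S1pr4. With the replicate block and without deleted IgM replicate 3, the genotype difference with IgM was -0.040 for Klf3 1441200_at and -0.37 for S1pr3 1460661_at, and the interaction was 0.16 for Klf2 and -0.38 for S1pr3 1460661_at. Of 342 member values recomputed in settings other than leaving out 1 array, 311 kept their direction and side of the threshold, and of 780 that left out 1 array, 695 did. In the replicate block fit alone no call of a member was lost.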
